A study of Mus musculus with 6 samples.

Results

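Interferon response and antigen presentation genes were followed in mouse lung endothelial cells labelled as HIF-2α knockout, and in control cells, both kept in low oxygen. The set held 39 genes of the interferon system, listed by name. Each was read from probe sets (groups of short probes against a transcript) that the array's annotation assigns to that gene alone, and of several such probe sets the one with the highest mean signal over all 6 arrays was used. By this rule 37 of the 39 genes were measured, out of 18193 genes with a probe set of their own. Ifi44 has no listed probe set, and the probe set listed for Isg15 is shared with another gene, so neither was analysed here.

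The 3 knockout arrays were made from lung endothelial cells of VE-Cadherin-Cre mice carrying floxed/floxed HIF-2a alleles. The 3 control arrays were made from the same kind of cells, for which the labels disagree: the sample descriptions give VE-Cadherin-Cre mice with floxed/WT alleles, the study design gives floxed/floxed cells, and the genotype field gives wild type control. The VE-cadherin promoter drives Cre recombinase in endothelial cells, and the cells were isolated by repeated selection with endothelial markers. All 6 samples spent 16 h at 0.5% oxygen, so the arrays compare genotypes within hypoxia and hold no normal-oxygen value. The labels give neither the age of the mice nor whether replicate arrays stand for separate animals or cultures, and the p-values below measure only the spread between these arrays.

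Type I and type II interferons bind their receptors on the cell surface and act through JAK kinases and STAT proteins. A complex that holds STAT2 and IRF9 binds a promoter element called the ISRE, and STAT dimers bind a different element called GAS, which turns on antiviral genes, GTPases against intracellular pathogens, and the machinery of antigen presentation. Viral RNA sensed inside the cell raises interferon output through IRF3 and IRF7. Class I molecules carry peptides, pumped into the endoplasmic reticulum by the TAP transporter, to the surface, where T cells inspect them, and endothelial cells are among the first cells that circulating T cells meet.

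The arrays were alike in scale. The median signal over all probe sets was 5.55 to 5.60 in knockout arrays and 5.52 to 5.66 in control arrays, and a signal over 16 was found for 41.5% to 42.3% of probe sets in knockout arrays and 42.1% to 42.6% in control arrays. Signals here are linear hybridisation intensities as deposited, and 16 is used as a floor below which values were not ordered. Replicates were unevenly close: the SD of log2 differences over genes was 0.681 between knockout arrays 2 and 3 and 0.31 between knockout arrays 1 and 2, while control arrays 1 and 3 differed by 0.14. Epas1, the gene for HIF-2α, read 8920, 9397 and 9859 in knockout arrays, against 9611, 9590 and 9444 in control arrays, a difference of -0.02 ± 0.04 (SE, adjusted p = 0.753). The labels do not say which exons were deleted or where these probes lie relative to them, so this signal does not check the deletion, and the loss of HIF-2α rests on the labels alone.

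The set divided by level before any comparison of genotypes. Of the 37 measured members, 18 stayed under 16 on every array, with highest signals of 3.78 to 8.71, and 19 passed 16 on at least 1 array, with highest signals of 55.4 or more. No member's highest signal lay between 8.71 and 55.4. At the floor were the classical interferon-induced effectors Ifit1 and Ifit3, which bind viral RNA, the dynamin-like GTPases Mx1 and Mx2, the 2′-5′ oligoadenylate synthetases Oas1a, Oas2 and Oas3 with their relative Oasl2, Rsad2 (viperin) and Xaf1. Also at the floor were Ifih1, the RNA sensor MDA5, Irf7, a transcription factor that amplifies interferon production, and Usp18, a protease that removes ISG15 from proteins. All 4 GTPases against intracellular pathogens were at the floor too, Gbp2, Gbp3, Igtp and Iigp1, as was Cxcl10, the chemokine that draws T cells. Signals at the floor hardly varied between arrays: Usp18 read 4.25, 4.27 and 4.25 in knockout arrays, against 4.24, 4.23 and 4.26 in control arrays. Cxcl10 read 5.22, 5.34 and 5.16 in knockout arrays, against 5.11, 5.16 and 5.20 in control arrays. Groups were not separated by more than these small steps. Ifih1 read 4.55, 4.58 and 4.54 in knockout arrays, against 4.53, 4.53 and 4.56 in control arrays. Gbp3 read 5.14, 5.21 and 5.11 in knockout arrays, against 5.08, 5.07 and 5.15 in control arrays. Iigp1 read 5.10, 5.16 and 5.07 in knockout arrays, against 5.05, 5.06 and 5.10 in control arrays. The highest floor value, 8.71, was Xaf1 on knockout array 1. The 5 floor members that still entered the test gave no call, and their values have no order. Over the floor stood all 3 receptor subunits, 4 of 5 transcription factors, all 6 class I genes, the sensor Ddx58 and 5 of 15 measured antiviral effectors.

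**Figure D1:**
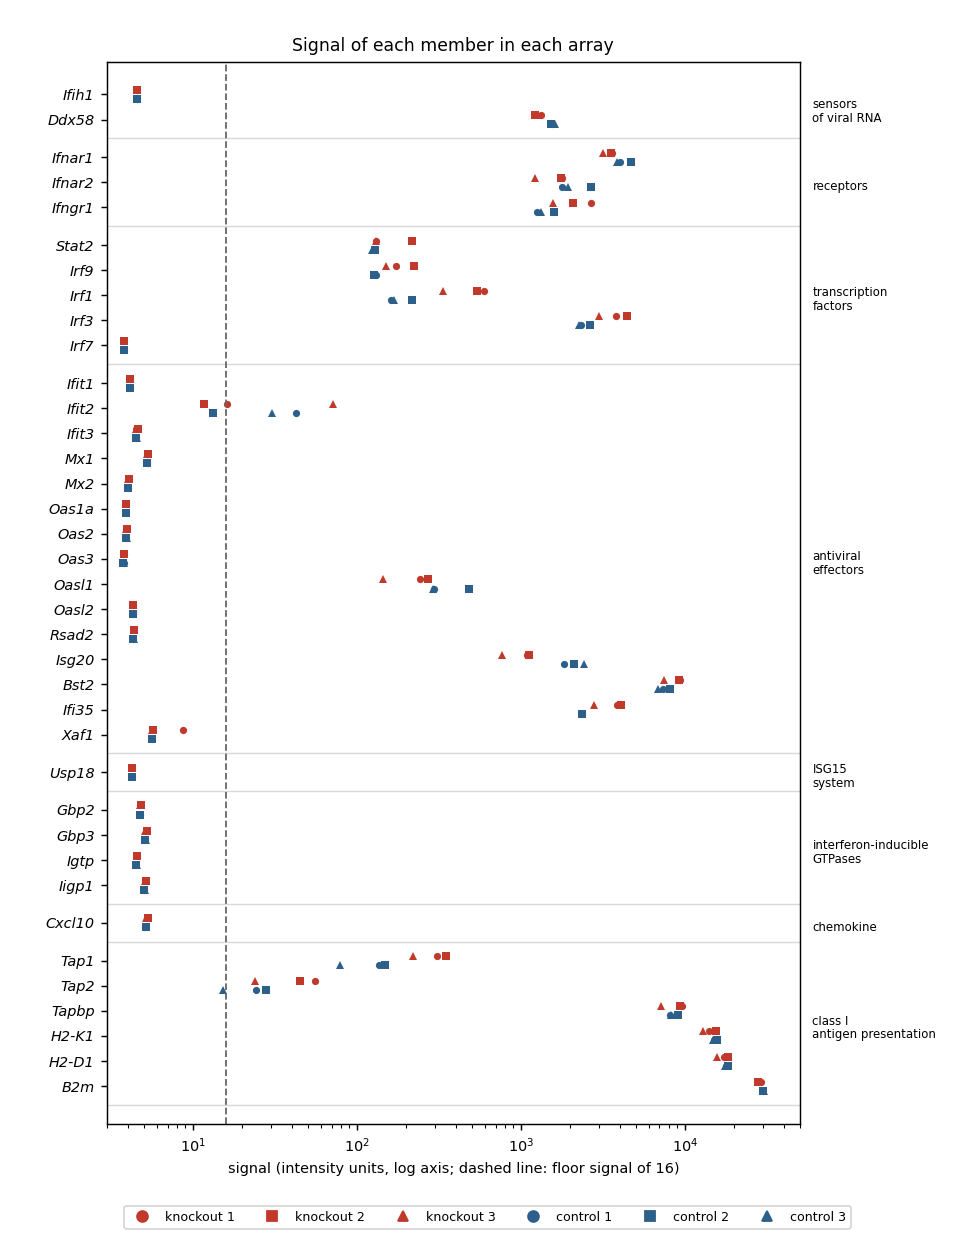
Signal of each measured member on each array, on a log axis, grouped by role, with knockout arrays drawn above control arrays and a dashed line at the floor of 16. The 18 floor members sit below 16 on all 6 arrays, and the other 19 reach 55.4 or more on at least 1.

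The promoters of these members were read for the elements the pathway uses, as a description of sequence. The window was 250 bases before to 50 after the annotated start, from RefSeq on GRCm38.p6, and both strands were searched for the ISRE core (GAAA, then NN, then GAAA, in an unbroken run) and the GAS element TTCNNNGAA, where N is any base. Some genes have several windows, and a gene was counted if any of them held the letters. Of 27025 genes with a window, 3.99% held the ISRE letters and 9.55% the GAS letters (3.44% and 8.30% of all 32851 windows). Of 13 floor members with a window, 10 held the ISRE letters, and of 18 members over the floor with a window, 4 did: B2m, Bst2, Ddx58 and Stat2. The GAS letters were in 2 of the 13 floor members (Igtp and Oas1a) and in 7 of the 18 over the floor (Bst2, Ifi35, Ifit2, Ifnar1, Ifnar2, Irf1 and Isg20). The stretches below, each 60 bases, show the ISRE letters (capitals, either strand) in floor members and in B2m and Bst2, which lie well over the floor. They are Ifit1 chr19:34640769-34640828 (+), Ifit3 chr19:34583365-34583424 (+), Oas3 chr5:120777700-120777759 (-), Rsad2 chr12:26456538-26456597 (-), Gbp2 chr3:142620579-142620638 (+), Igtp chr11:58199497-58199556 (+), Cxcl10 chr5:92349068-92349127 (-), B2m chr2:122147523-122147582 (+) and Bst2 chr8:71537565-71537624 (-).
Ifit1: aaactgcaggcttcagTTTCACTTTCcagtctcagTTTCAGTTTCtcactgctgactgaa
Ifit3: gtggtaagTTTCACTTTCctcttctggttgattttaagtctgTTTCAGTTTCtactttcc
Oas3: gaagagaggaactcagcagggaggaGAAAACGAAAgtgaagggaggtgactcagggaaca
Rsad2: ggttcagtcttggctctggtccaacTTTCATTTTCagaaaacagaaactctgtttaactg
Gbp2: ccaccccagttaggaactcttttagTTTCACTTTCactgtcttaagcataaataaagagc
Igtp: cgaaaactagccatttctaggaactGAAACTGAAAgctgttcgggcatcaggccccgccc
Cxcl10: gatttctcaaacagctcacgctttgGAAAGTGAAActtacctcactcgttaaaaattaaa
B2m: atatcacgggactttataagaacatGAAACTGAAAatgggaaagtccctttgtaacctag
Bst2: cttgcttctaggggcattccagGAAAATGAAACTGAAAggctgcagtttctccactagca
Ifit1 and Ifit3 hold the letters at 2 separate places within the stretch, and Bst2 holds them as an overlapping pair. A match gives only the letters in this window, with no measurement of what binds there.

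Between genotypes, 24 members could be tested, because 13 floor members fell below the filter on low probe sets. Irf1 rose in knockout cells, and Isg20 and Ddx58 fell. These 3 of 24 tested members (12.5%) compare with 13.7% of all 12274 genes tested, a share near that of genes at large. By direction, 1 member was higher, against 8.65% of all genes, and 2 were lower, against 5.08% of all genes. The knockout and control arrays did not overlap for 12 of the 24 members, against 36.2% of all genes. Of these 12, 6 lay higher in knockout arrays (23.4% of all genes did) and 6 lower (12.8% of all genes did). The median log2 difference was 0.03 over the 19 members above the floor and 0.0046 over all 24 tested, beside 0.0071 over all genes. Members over the floor lay on both sides, 10 with a positive and 9 with a negative difference.

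**Figure D2:**
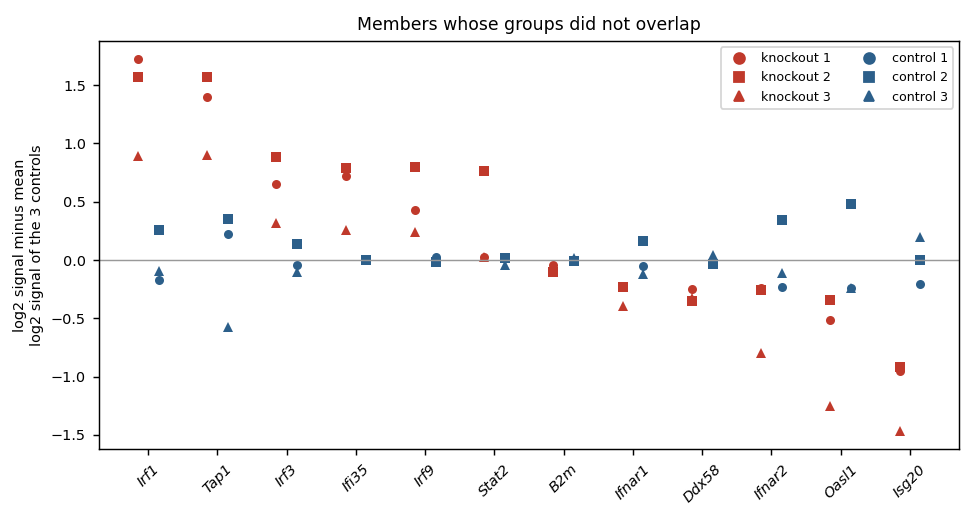
Log2 signal of each array minus the mean log2 signal of the 3 control arrays, with knockout arrays left of control arrays, for the 12 members whose groups did not overlap. In Irf1, Tap1, Irf3, Ifi35, Irf9 and Stat2 every knockout array lies above every control array, and in the other 6 members below.

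Among the sensors, Ddx58 fell by a small and even margin. Ddx58 encodes RIG-I, which recognises viral RNA in the cytoplasm and starts interferon production. Its signal was 1318, 1227 and 1247 in knockout arrays, against 1548, 1528 and 1610 in control arrays. The means were 1264 ± 48.2 in knockout arrays and 1562 ± 42.9 in control arrays (SD, n = 3 each), and the groups lay -0.30 ± 0.04 apart on the log2 scale (SE, limma adjusted p = 0.0167). The spread within each group was narrow, and every knockout array lay below every control array. A further Ddx58 probe set read 672, 736 and 708 in knockout arrays, against 857, 770 and 789 in control arrays, a difference of -0.19 ± 0.06 that did not pass (adjusted p = 0.125). The dimmest Ddx58 probe set stayed at the floor on every array. Without control array 1 or control array 3 the call was lost (adjusted p = 0.0822 and 0.0751), while the difference stayed between -0.33 and -0.28 in all 6 runs with 1 array left out. The Ddx58 promoter window, chr4:40239776-40240075 (-), is printed with the ISRE letters, which lie wholly after the start, in capitals.
Ddx58: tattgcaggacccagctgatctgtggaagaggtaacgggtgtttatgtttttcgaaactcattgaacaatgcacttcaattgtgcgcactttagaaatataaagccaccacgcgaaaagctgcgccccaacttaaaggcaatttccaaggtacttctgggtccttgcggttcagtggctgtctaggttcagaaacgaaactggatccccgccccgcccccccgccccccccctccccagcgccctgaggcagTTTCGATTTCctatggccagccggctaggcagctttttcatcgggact

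The 3 receptor subunits did not pass the test, and they did not lie on one side. Ifnar1, a chain of the type I interferon receptor, read 3568, 3541 and 3176 in knockout arrays, against 4025, 4666 and 3839 in control arrays. The groups did not overlap, with a difference of -0.28 ± 0.09 (adjusted p = 0.12). A further Ifnar1 probe set was dim, at 23.6, 12.1 and 10.1 in knockout arrays, against 20.8, 46.6 and 24.6 in control arrays. Its groups overlapped, and its difference of -0.56 ± 0.28 did not pass (limma adjusted p = 0.285). Ifnar2, the partner chain, read 1784, 1761 and 1211 in knockout arrays, against 1790.3, 2662 and 1947 in control arrays, where the highest knockout array and the lowest control array almost met (-0.42 ± 0.23, adjusted p = 0.282). Its other 2 probe sets over the floor gave differences of -0.0073 and -0.28. Ifngr1, the ligand-binding chain of the receptor for interferon-γ, read 2674, 2069 and 1566 in knockout arrays, against 1258, 1594 and 1324 in control arrays. There knockout array 3 fell within the control range, and the difference of 0.56 ± 0.23 did not pass (adjusted p = 0.169).

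Irf1 had the largest difference of any member over the floor. It encodes a transcription factor induced by interferon-γ that drives class I and antigen-processing genes. Its signal was 596, 536 and 336 in knockout arrays, against 161, 217 and 169 in control arrays. The means were 489 ± 136 in knockout arrays and 182 ± 30.0 in control arrays (SD, n = 3 each), a 2.69-fold ratio of means that is 1.32 ± 0.25 on the log2 scale of the fit (SE, adjusted p = 0.0389). No knockout array came down to the control range, although knockout array 3 lay well below the other 2. Among the 6 runs with 1 array left out, the call held only without knockout array 3 (adjusted p = 0.0172). It was lost on leaving out any 1 of the other 5 arrays (adjusted p = 0.071 to 0.147, difference 1.16 to 1.56 over all 6 runs), and with the level of the added spike-in controls as a covariate, where the difference was 0.76 (adjusted p = 0.145). In the separate fit over 27014 probe sets, from which the values of further probe sets are taken, the same Irf1 probe set did not pass (adjusted p = 0.0535). The spike-in controls, RNA added in fixed amount, averaged 10.8 to 11.1 on the log2 scale in knockout arrays and 10.6 to 10.9 in control arrays. Their level thus tended to differ with genotype, so the covariate fit cannot separate their part in this difference from that of genotype. The Irf1 window, chr11:53769764-53770063 (+), carries the GAS letters 90 bases before the start and the letters GCGTG, a core of the hypoxia response element, 32 bases before it (capitals). GCGTG was in 32.4% and its variant ACGTG in 19.6% of all windows, and in 35.15% and 21.78% of genes with a window. Among members with a window, GCGTG was in 11 of 18 over the floor and 4 of 13 at the floor, so it was not particular to Irf1. The Ddx58 window printed above also holds it, unmarked, on the other strand 142 bases before the start.
Irf1: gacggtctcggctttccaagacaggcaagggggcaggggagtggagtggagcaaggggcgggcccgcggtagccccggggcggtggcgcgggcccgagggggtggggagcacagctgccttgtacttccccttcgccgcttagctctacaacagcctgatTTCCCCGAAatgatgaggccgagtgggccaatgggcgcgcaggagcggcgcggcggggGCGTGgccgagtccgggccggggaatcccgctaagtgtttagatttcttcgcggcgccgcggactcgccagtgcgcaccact

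The remaining transcription factors over the floor, Irf3, Irf9 and Stat2, lay higher in knockout arrays without overlap, but none passed. Irf3, the factor activated by viral sensing, read 3784, 4450.0 and 2997 in knockout arrays, against 2340.4, 2647 and 2247 in control arrays (0.62 ± 0.17, adjusted p = 0.078). The Irf3 probe set used is of the array's class whose probes can match more than 1 transcript, which limits its values. Of its 3 further probe sets over the floor, which are not of this class, all gave a positive difference, at 0.74 ± 0.18, 0.28 ± 0.30 and 0.60 ± 0.18. Irf9, the DNA-binding subunit of the complex that reads the ISRE, had 173, 223 and 151 in knockout arrays, against 131, 127 and 128 in control arrays (0.44 ± 0.14, adjusted p = 0.109). Its partner Stat2 had 129.9, 217 and 129.8 in knockout arrays, against 129.6, 129.4 and 124 in control arrays (0.25 ± 0.21, adjusted p = 0.475). Knockout arrays 1 and 3 exceeded the highest control array for Stat2 by a small fraction of a signal unit, and with the spike-in covariate its difference was -0.0014. A further Stat2 probe set gave 0.04. Irf7, the fifth factor, was at the floor.

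Of the antiviral effectors over the floor, Isg20 fell. Isg20 encodes an exonuclease that degrades single-stranded RNA. Its signal was 1089, 1116 and 763 in knockout arrays, against 1827, 2104 and 2418 in control arrays. The means were 989 ± 196 in knockout arrays and 2116 ± 296 in control arrays (SD, n = 3 each), a ratio of 0.467 that is -1.10 ± 0.19 on the log2 scale of the fit (SE, adjusted p = 0.0325). The highest knockout array lay well under the lowest control array. As with Irf1, among the 6 runs with 1 array left out the call held only without knockout array 3 (adjusted p = 0.0285). Without any 1 of the other 5 arrays it was lost (adjusted p = 0.0651 to 0.122, difference -1.20 to -0.92 over all 6 runs), and with the spike-in covariate the difference was -1.48 (adjusted p = 0.055). Isg20 was the 1 member of 18 over the floor with a window that held the core ACGTG. At the floor, 2 of 13 held it (Igtp and Oasl2), and 21.78% of all genes with a window did. Isg20 is shown from the window of its second annotated start, chr7:78913515-78913814 (+), where the core is read on the other strand as CACGT (capitals), 19 and 10 bases before the start.
Isg20: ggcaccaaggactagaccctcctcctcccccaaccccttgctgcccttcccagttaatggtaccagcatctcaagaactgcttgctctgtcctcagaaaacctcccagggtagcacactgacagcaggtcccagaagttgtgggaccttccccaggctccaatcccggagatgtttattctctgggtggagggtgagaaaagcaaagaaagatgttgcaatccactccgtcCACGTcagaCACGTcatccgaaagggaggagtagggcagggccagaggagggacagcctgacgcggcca

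The other 4 effectors over the floor did not pass. Ifi35, an interferon-induced protein that binds NMI, read 3878, 4071 and 2805 in knockout arrays, against 2359, 2347 and 2347 in control arrays (0.59 ± 0.16, adjusted p = 0.0753), and its 2 further probe sets gave 1.19 ± 0.48 and 0.65 ± 0.27. The groups did not overlap. Oasl1, a protein related to the oligoadenylate synthetases, read 241, 272 and 145 in knockout arrays, against 293.3, 481 and 292.8 in control arrays (-0.66 ± 0.32, adjusted p = 0.231), again without overlap. Bst2, or tetherin, which holds budding virus at the cell membrane, read 9332, 9239 and 7455 in knockout arrays, against 7387, 8132 and 6840.0 in control arrays (0.21 ± 0.12, adjusted p = 0.288). Its groups overlapped through knockout array 3. Ifit2, a relative of Ifit1, passed the floor on 4 of 6 arrays and varied widely within both groups, with 16.2, 11.7 and 71.3 in knockout arrays, against 42.5, 13.2 and 30.4 in control arrays (-0.0078 ± 0.55, adjusted p = 0.992).

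The class I presentation genes were all over the floor, and none passed. Tap1, a subunit of the peptide transporter, read 308, 347 and 218 in knockout arrays, against 136, 149 and 78.8 in control arrays. All knockout arrays were above all control arrays, with means of 291 ± 66.0 in knockout arrays and 121 ± 37.5 in control arrays (SD, n = 3 each) and a difference of 1.18 ± 0.29 (adjusted p = 0.0642). This rests on 1 of the 4 Tap1 probe sets, as the rest stayed at the floor, at 4.24 to 4.93. Tap2, the other subunit, read 55.4, 45.1 and 24.0 in knockout arrays, against 24.1, 27.9 and 15.3 in control arrays, overlapping through knockout array 3 (0.55 ± 0.27, adjusted p = 0.234). Tapbp (tapasin), which links the transporter to class I molecules, read 9652, 9276 and 7162 in knockout arrays, against 8152, 9119 and 8178 in control arrays, and the groups overlapped (0.03 ± 0.13, adjusted p = 0.914). B2m, the light chain of class I molecules, read 29231, 27997 and 28248 in knockout arrays, against 29834, 29855 and 30456 in control arrays. This was a non-overlapping but very small difference, -0.08 ± 0.02 (adjusted p = 0.106), and a further probe set gave -0.10 ± 0.04.

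The class I heavy chains depended on the probe set read. H2-K1, by its brightest probe set, had 14119, 15553 and 12818 in knockout arrays, against 15009, 15603 and 14808 in control arrays (-0.10 ± 0.08, adjusted p = 0.441). Its second probe set had 6108, 6373 and 4632 in knockout arrays, against 3364, 3810 and 3667 in control arrays (0.64 ± 0.14, adjusted p = 0.0699). The dimmest of the 3 over the floor had 3507, 3677 and 2274 in knockout arrays, against 1519, 2085 and 1647 in control arrays (0.82 ± 0.24, adjusted p = 0.119). The 2 dimmer probe sets thus separated the groups in the direction opposite to the brightest one, without passing in a fit over 27014 probe sets. All 3 are of the array's class of probe sets whose probes can match more than 1 transcript, and class I genes share much sequence, so the H2-K1 values are uncertain. H2-D1, the other heavy chain, read 17364, 18438 and 15667 in knockout arrays, against 17828, 18413 and 17544 in control arrays (-0.07 ± 0.07, adjusted p = 0.559), and its further probe sets over the floor gave -0.08, 0.02 and 0.02. The rest of its 9 probe sets stayed at the floor on every array. The H2-D1 probe set used is of the same class, so its values are uncertain too. By their names, the Ifi35 probe set used and the dimmest probe sets of Ifi35 and Ifnar2 can also match more than 1 transcript, as can the Irf3 one used. Over all members, 16 of 32 further probe sets passed the floor, in 9 genes, and 12 of the 16 had the sign of the gene's main probe set.

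**Figure D3:**
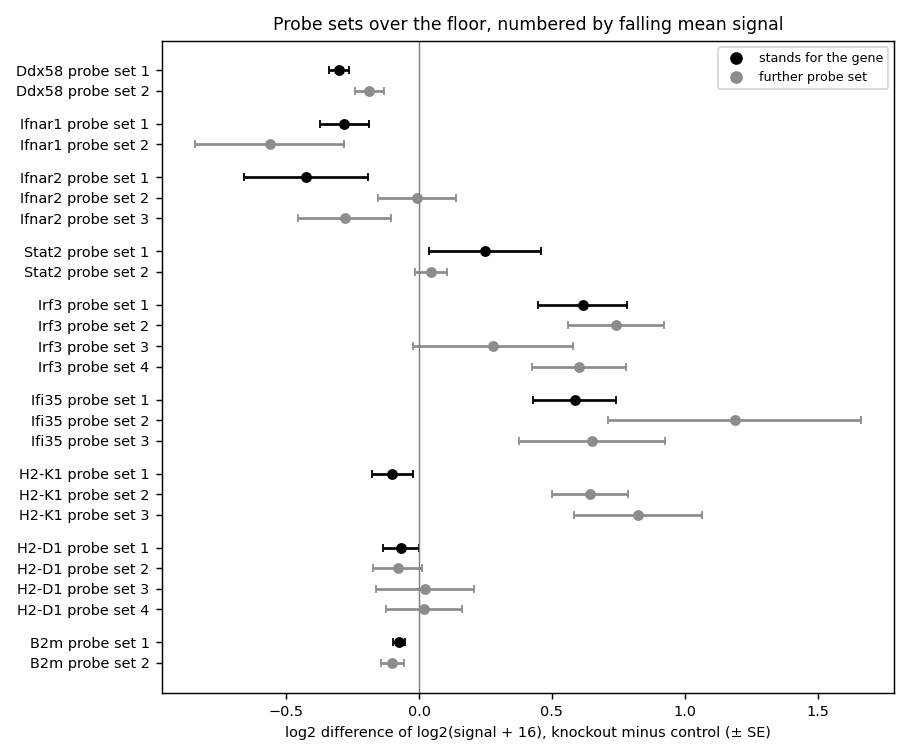
Log2 difference, knockout minus control (bars are the SE), for each probe set over the floor in the 9 members that have several, numbered by falling mean signal. The Irf3 and Ifi35 probe sets all lie above 0, and those of H2-K1 lie on both sides.

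A single array recurred in these comparisons. Knockout array 3 was the lowest of the knockout arrays in all 6 non-overlapping members that lay higher in knockout cells, and in 4 of the 6 that lay lower. How often this held over all genes was not counted. The SD of log2 differences over genes was 0.48 and 0.68 between knockout array 3 and knockout arrays 1 and 2, against 0.31 between arrays 1 and 2. Without knockout array 3, 7 members passed the test: Ddx58, Ifi35, Irf1, Irf3, Irf9, Isg20 and Tap1. Over all genes the number past the test was then 3009, against 1685 with all arrays, so the set's gain came with a gain at large. Without control array 1 or control array 3, no member passed, while 5 and 6 members had an unadjusted limma p under 0.05. Of all 12274 genes, 207 and 212 passed in these runs, and 2680 and 2634 had an unadjusted limma p under 0.05.

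**Figure D4:**
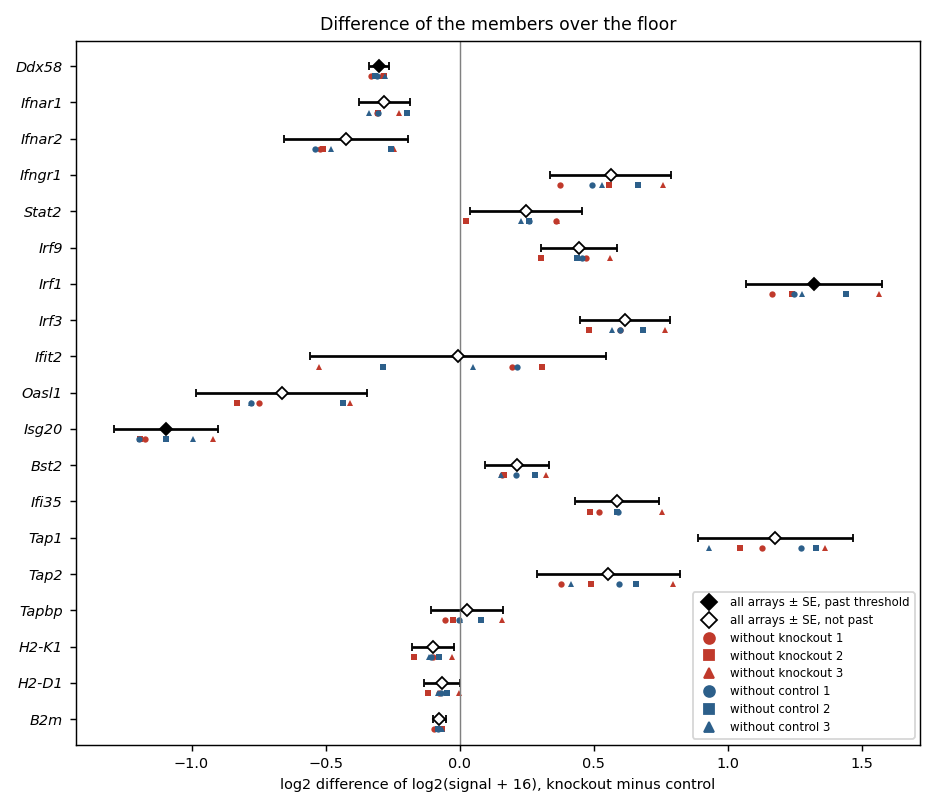
Log2 difference, knockout minus control, of each member over the floor, with all arrays (diamonds, bars are the SE, filled where past the threshold) and with each array left out in turn (small symbols). Irf1 stays between 1.16 and 1.56 and Isg20 between -1.20 and -0.92, while Ifit2 lies on both sides of 0.

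Other genes of the pathway, from lists of ligands, sensing, receptor signalling, further interferon-stimulated genes, class I processing and class II presentation, placed the set in context. Of 111 listed, 94 were measured, 44 of them at the floor, and 68 were tested. Of these, 6 rose and 0 fell (8.82% called, against 13.7% of all genes), with a median difference of 0.01. Over all genes, 8.65% were called higher and 5.08% lower, so the share that rose was near that of genes at large. An unadjusted limma p under 0.05 was found for 23 of the 68, and for 3981 of all 12274 genes. All 7 measured interferon ligands, Ifnb1, Ifng and Ifnab (4.84 to 4.93) among them, were at the floor on every array, and so were all 9 measured class II genes, H2-Aa (4.99 to 5.10) among them, so these ligands and class II genes gave no signal over 16 in either genotype.

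The 6 that rose came from 3 of the lists. Cgas, the cytoplasmic DNA sensor, was the 1 called of 10 tested sensing genes, at 478, 388 and 547 in knockout arrays, against 210.5, 249 and 235 in control arrays (0.97 ± 0.14, adjusted p = 0.0226). Pml, the organiser of nuclear bodies, read 1942, 2244 and 1490 in knockout arrays, against 703, 858 and 676 in control arrays (1.31 ± 0.19, adjusted p = 0.0208). Irgm1, a GTPase against intracellular bacteria, read 268, 253 and 267 in knockout arrays, against 149, 115 and 141 in control arrays (0.89 ± 0.10, adjusted p = 0.0128). In each, the knockout arrays lay clear of the control arrays. Ifi47, a related GTPase, read 1974, 1740.0 and 1870.4 in knockout arrays, against 1227, 1116 and 1237 in control arrays (0.63 ± 0.07, adjusted p = 0.012). Samhd1, which depletes nucleotides in the cell, read 1062, 806 and 912 in knockout arrays, against 551, 594 and 534 in control arrays (0.70 ± 0.11, adjusted p = 0.0273). With Pml and Irgm1 these made 4 called of 30 tested interferon-stimulated genes. Psmb10, a catalytic subunit of the immunoproteasome, was the 1 called of 13 tested processing genes, at 2582, 2726 and 1739 in knockout arrays, against 1038, 1292 and 971 in control arrays (1.07 ± 0.22, adjusted p = 0.0446). Its companion subunits Psmb8 and Psmb9 were at the floor. None of the 12 tested receptor, kinase and feedback genes passed, though 5 had an unadjusted limma p under 0.05. The brightest of the 12, the kinase gene Jak2, read 3264, 2345 and 6325 in knockout arrays, against 6579, 3871 and 6463 in control arrays, and its groups overlapped (-0.59 ± 0.45, adjusted p = 0.434). Among those 12 was also Socs3, a feedback inhibitor of cytokine receptors, at 1421, 1504 and 893 in knockout arrays, against 2480.5, 2980.4 and 2339 in control arrays (-1.05 ± 0.24, adjusted p = 0.0541). The count of 6 was 0 without control array 3 or knockout array 1. There 9 and 12 had an unadjusted limma p under 0.05, beside 2634 and 2832 of all 12274 genes. The count was also 0 with control arrays 1 and 3 averaged, where 9 had (2679 of all genes). It was 1 without control array 1 or with the spike-in covariate, and 4 without control array 2. The split of 6 higher and 0 lower was 16 and 3 without knockout array 3, 20 and 7 without control 2 and knockout 3, 14 and 6 with the replicate number as a block, and 30 and 11 with array weights, which did not converge. Over all genes, the split of 1062 higher and 623 lower became 1990 and 1019, 2946 and 1701, 2079 and 920, and 5007 and 3532 under these same settings.

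**Figure D5:**
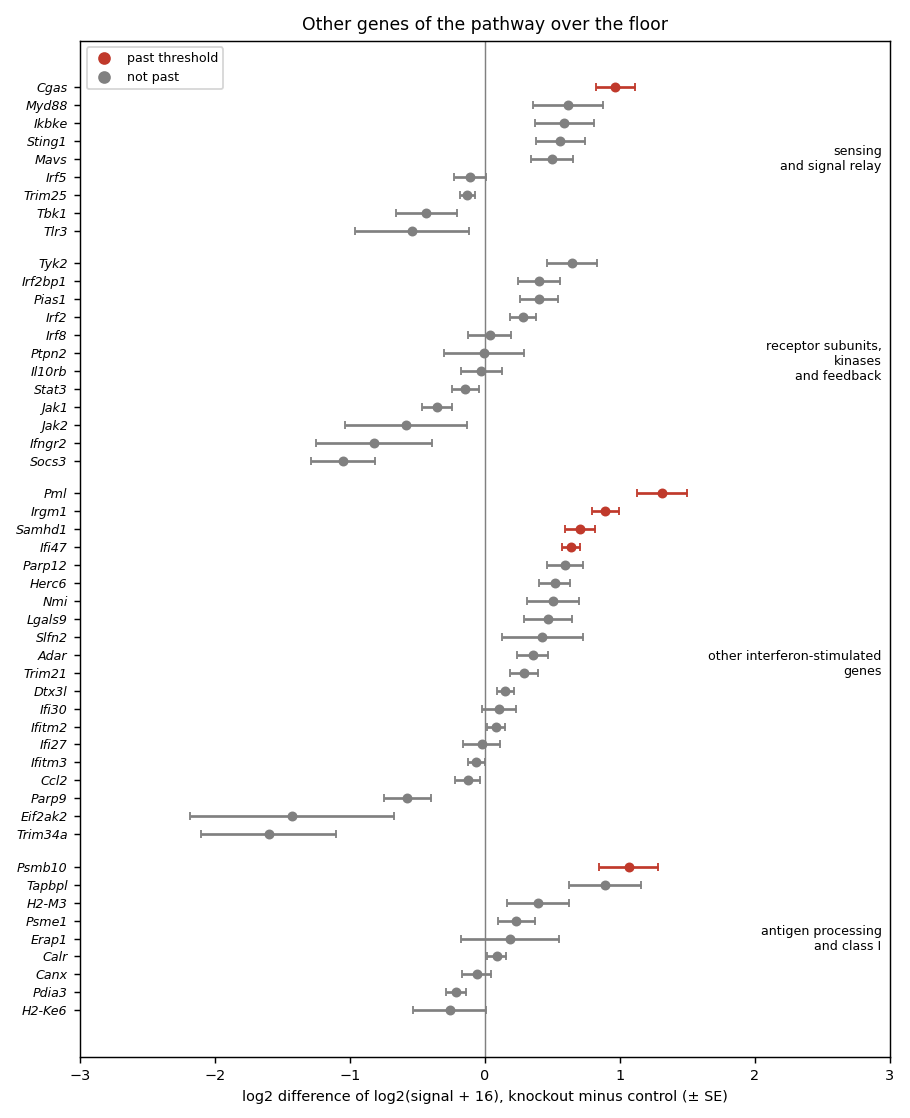
Log2 difference, knockout minus control (bars are the SE), of the 50 other pathway genes over the floor, by list, with those past the threshold in red. The 6 red genes all lie above 0, and the other genes lie on both sides.

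Markers of cell types were read beside these values. All 10 measured endothelial markers were over the floor, and their summed signal was 112816 to 124700 in knockout arrays and 138076 to 147936 in control arrays. Of the 10, 4 passed the test as lower (Pecam1, Tek, Tie1 and Erg), against 5.08% of all genes tested. Of 9 measured leukocyte markers, 6 were at the floor, including the defining Ptprc, Cd3e and Itgam. Of the 3 over the floor, Cd68 and Cd14 fell (-2.01 ± 0.17 and -2.09 ± 0.26, adjusted p = 0.00761 and 0.0162). Laptm5 passed 16 on knockout array 2 alone, with 9.78, 62.6 and 7.23 in knockout arrays, against 5.58, 6.21 and 7.47 in control arrays (0.69 ± 0.52, adjusted p = 0.426). The leukocyte markers summed to 815 to 1258 in knockout arrays and 3855 to 4517 in control arrays, and most of each sum was Cd68. All 7 fibroblast and all 7 lung epithelial markers were at the floor, and of 5 smooth muscle markers Tagln alone was over it, with summed signals of 89.5 to 227 in knockout arrays and 51.5 to 94.2 in control arrays. Whether these marker differences have a part in the interferon gene values was not tested. In bulk RNA, fewer cells of a type and less RNA per cell cannot be told apart.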

How the data were processed

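Total RNA of 6 samples (3 knockout, 3 control) was amplified, biotin-labelled and hybridised to mouse Affymetrix arrays, per the labels. The authors deposited 1 table of linear signal intensity per probe set. MAS5 and GCRMA are named in the submitters' processing notes, with no role for either, so background correction and scaling are otherwise not given in the sources used here, and array depth cannot be stated beyond the number of arrays.

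Of 45101 probe sets, 64 are controls and were left out. The platform annotation gives 1 gene for 34958, several for 932 and lists none for 9211. Probe sets in the lowest 40% by mean signal (under 4.94) were not tested, except where stated. The highest-mean probe set was kept per gene, and log2(intensity + 16) was fitted in limma 3.58.1 (R 4.3.3; lmFit, eBayes) as knockout minus control, with Benjamini-Hochberg adjustment over 12274 genes and a threshold of 0.05. Differences are on this log2 scale, which understates those of dim genes. The fit was tested on simulated data. Per-array values are given for called members, the 2 brightest of each role and non-overlapping members differing by at least 0.5, and were extended to all members over the floor of 16. Of other lists, up to 4 called genes, or the brightest where none was called, are named. Socs3, Psmb8, Psmb9, Ifnb1 and Ifng were chosen after their values were seen. Members and lists were chosen with earlier results of these data known. The labels do not say whether replicate numbers pair the samples, and the main fit did not pair them. Same-numbered deviations from the group means correlated at -0.466, 0.845 and 0.805, and those of knockout array 3 and control array 1 at 0.762. With 3 arrays per group, these correlations cannot settle the pairing. Alternatives covered scaling, filters, pseudocounts, variance models, probe set averaging, a spike-in covariate, a replicate block and each array left out. Figures were drawn with matplotlib 3.10.9.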

Additional observations from a re-analysis of the deposited data

How the results depend on the processing

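Over 20 alternatives, 312 of 380 comparisons of the 19 members over the floor kept their direction and side of the threshold, 28 passed where they had not, 23 no longer passed and 17 changed sign, in 6 members, and the cause was not tested. The number of members past the threshold, 3 of 24, was 17 with array weights (which did not converge), 1 without the filter on low probe sets, 1 with the spike-in covariate (Ifnar2), 0 with control arrays 1 and 3 averaged (6 had an unadjusted limma p under 0.05, beside 2679 of all 12274 genes), 10 without control 2 and knockout 3, and 0 to 7 with 1 array left out. All genes past the threshold, 1685, numbered 8539, 883, 445, 196 and 4647 under these same settings and 207 to 3009 with 1 array left out. With the replicate number as a block, 4 members (Ddx58, Irf1, Irf3 and Tap1) and 2999 genes passed. The labels do not say whether the numbers pair the samples. Of all calls, 63.0% were higher in knockout arrays, against 36.9% with the spike-in covariate. Ddx58 was lost with an intensity trend in eBayes (adjusted p = 0.0789), with a filter at 16 (0.0511), with the spike-in covariate (0.1) and with averaged controls (0.0762). Sign changes were: Ifit2 at 0.11 (quantile), 0.0173 (pseudocount 32), 1.33 (spike-in covariate), 0.13 (averaged controls) and -0.52 to 0.30 (1 array left out); Tapbp at -0.26 (spike-in covariate), -0.0008 (averaged controls) and -0.0555 to 0.16 (1 array left out). With the spike-in covariate Stat2 was -0.0014 and Bst2 -0.0188. H2-K1 was 0.46 with the mean of its probe sets, and H2-D1 0.0168 without control 2 and knockout 3. The 3 arrays per group limit the precision.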
